A study of Mus musculus with 20 samples.

Results

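The G1 cyclins and CDK inhibitors described here are 10 genes chosen by name, whose Ensembl identifiers in the count files were matched to symbols with GENCODE M21. They comprise the kinases Cdk4 and Cdk6, the D-type cyclins Ccnd1, Ccnd2 and Ccnd3, the E-type cyclin Ccne1, and the inhibitors Cdkn1a, Cdkn1b, Cdkn2c and Cdkn2d. All 10 of the 10 were among the 16509 genes that passed the filter on low counts, out of 55573 genes in the files.

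RNA was measured by sequencing in 20 libraries of 4 groups, with 5 libraries in each. The groups were Lepr+ haematopoietic stem cells (HSC), Lepr- HSC, Lepr+ multipotent progenitors (MPP) and Lepr- MPP, where + and - stand for leptin receptor protein on the surface or not, as stained with an antibody. Each library came from the pooled bone marrow of 2 C57BL/6 mice aged 7 to 9 weeks and held 1000 to 8000 cells. HSC were sorted as lineage-depleted Sca-1+ c-Kit+ cells with CD150 and without CD48, and MPP as the same cells without either. No group was treated or carried a transgene. The p-values below measure the spread between libraries, and the main fit takes the 20 libraries as independent. Libraries of the same replicate number were taken to share their 2 mice. Only the fit with the replicate number as a block allows for this.

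Progress through G1 is driven by D-type cyclins, which bind and activate CDK4 or CDK6. These kinases phosphorylate the retinoblastoma protein, which frees E2F factors to switch on cyclin E and the genes of DNA replication, and cyclin E with CDK2 completes the step. INK4 inhibitors (Cdkn2c for p18, Cdkn2d for p19) bind CDK4 and CDK6 alone, while Cip/Kip inhibitors (Cdkn1a for p21, Cdkn1b for p27) also bind cyclin E and CDK2 complexes. In mouse bone marrow the D-type cyclins with CDK4 and CDK6 are needed for blood formation, and in human blood stem cells low CDK6 is known to mark the most dormant ones.

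The depth of the libraries was 9532993 to 31589794 reads counted in genes. The sorts could be checked in the RNA of the gated receptors. Slamf1, the gene of CD150, averaged 41.3 ± 17.7 CPM (gene counts scaled to a common library size with TMM factors; SD, n = 5) in Lepr+ HSC, while Lepr- HSC had 46.6 ± 13.4 CPM. The MPP means were 5.03 ± 3.01 CPM in Lepr+ and 5.12 ± 3.83 CPM in Lepr- libraries. Cd48, whose protein all 4 groups were sorted to lack, averaged 10.5 ± 5.06 CPM in Lepr+ HSC, with 14.3 ± 6.59 CPM in Lepr- HSC, and stood higher in MPP, at 25.6 ± 9.37 CPM in Lepr+ and 50.6 ± 16.1 CPM in Lepr- libraries. Lepr RNA ranged from 0.0759 to 9.36 CPM in Lepr+ HSC against 0 to 0.165 CPM in Lepr- HSC, and from 0.261 to 38.8 CPM in Lepr+ MPP against 0 to 0.767 CPM in Lepr- MPP. Of all libraries 3 stood apart from the rest of their group over all genes, with mean correlations of 0.815 for Lepr+ MPP replicate 4, 0.837 for Lepr+ HSC replicate 5 and 0.858 for Lepr+ MPP replicate 5. Stromal marker RNA stood out in Lepr+ MPP, where the summed CPM of 19 stromal genes ran from 229 to 4450, against 69.7 to 122 in Lepr- MPP. In HSC the same sum ran from 70.5 to 335 in Lepr+ and from 45.9 to 311 in Lepr- libraries. As these are bulk samples, fewer cells of a type and less RNA per cell cannot be told apart.

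Levels of different genes were compared as TPM (counts divided by the merged exon length in GENCODE M21 and scaled to a common total in each library). Cdk4 was the most abundant of the 10 at 561 ± 68.4 TPM (mean ± SD over the 20 libraries). Ccnd2 and Cdkn2d followed at 124 ± 33.2 and 123 ± 31.96 TPM, then Ccnd3 at 88.7 ± 28.5 TPM and Cdk6 at 61.4 ± 31.4 TPM. Cdkn2c at 20.9 ± 7.88, Ccne1 at 18.0 ± 13.8 and Ccnd1 at 11.1 ± 6.04 TPM stood lower. The 2 Cip/Kip inhibitors among the 10 genes were the rarest of them, with Cdkn1b at 6.31 ± 3.08 TPM and Cdkn1a at 4.20 ± 2.74 TPM. Cdk4 stood clear of all the others, its lowest library at 363 TPM lying above the highest of Ccnd2 at 207 TPM, while every other pair of neighbours in this order overlapped. The sum of the 2 INK4 genes averaged 161 ± 28.1 TPM in Lepr+ HSC and 168 ± 40.4 in Lepr- HSC, against 11.9 ± 5.32 and 6.78 ± 2.94 TPM for Cdkn1a plus Cdkn1b. In MPP the INK4 sum averaged 121 ± 28.4 TPM in Lepr+ and 125 ± 20.7 in Lepr- libraries, and the sum of Cdkn1a and Cdkn1b 10.6 ± 4.03 TPM in Lepr+ and 12.8 ± 1.99 TPM in Lepr- libraries. Cdkn1c, the Cip/Kip inhibitor that is not among the 10, is left out of these sums. It averaged 24.3 TPM in Lepr+ HSC, with 9.15 TPM in Lepr- HSC, and 14.7 TPM in Lepr+ MPP, with 6.59 TPM in Lepr- MPP.

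By the GRCm38 annotation the D-type cyclin genes lie apart, with Ccnd1 (ENSMUSG00000070348.5) on chromosome 7 at 144929931-144939925 (minus strand), Ccnd2 (ENSMUSG00000000184.12) on chromosome 6 at 127125162-127152193 (minus strand) and Ccnd3 (ENSMUSG00000034165.16) on chromosome 17 at 47505051-47599691 (plus strand). The E-type cyclin is Ccne1 (ENSMUSG00000002068.16) on chromosome 7 at 38097984-38107534 (minus strand). The Cip/Kip genes are Cdkn1a (ENSMUSG00000023067.14) on chromosome 17 at 29090976-29100727 (plus strand) and Cdkn1b (ENSMUSG00000003031.14) on chromosome 6 at 134920401-134925513 (plus strand), and the INK4 genes Cdkn2c (ENSMUSG00000028551.14) on chromosome 4 at 109660876-109667189 (minus strand) and Cdkn2d (ENSMUSG00000096472.2) on chromosome 9 at 21288410-21291407 (minus strand). Of the merged exon bases, 7.68% in Cdkn1a, 4.11% in Ccnd3 and 2.63% in Cdk6 are also exon bases of a gene on the opposite strand. In Ccnd2 these shares are 3.95% and 3.91%, with 2 genes. Cdkn1b, Cdkn2c, Cdkn2d and Ccne1 have none.

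The kinase genes are first described by their start regions. Cdk4 lies on chromosome 10 at 127063534-127067920 (GRCm38, plus strand) and Cdk6 on chromosome 5 at 3341485-3531008 (plus strand). The 250 bases before each RefSeq start (GRCm38.p6) are shown because both windows hold the E-box CACGTG, in capitals, the core sequence that Myc and Max bind and that reads the same on both strands.
Cdk4 (chr10:127063285-127063534, plus strand): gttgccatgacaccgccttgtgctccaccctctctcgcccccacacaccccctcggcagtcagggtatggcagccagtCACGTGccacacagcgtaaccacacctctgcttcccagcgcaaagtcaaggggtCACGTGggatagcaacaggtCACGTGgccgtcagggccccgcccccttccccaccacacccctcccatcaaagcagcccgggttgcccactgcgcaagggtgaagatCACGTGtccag
Cdk6 (chr5:3343643-3343892, plus strand): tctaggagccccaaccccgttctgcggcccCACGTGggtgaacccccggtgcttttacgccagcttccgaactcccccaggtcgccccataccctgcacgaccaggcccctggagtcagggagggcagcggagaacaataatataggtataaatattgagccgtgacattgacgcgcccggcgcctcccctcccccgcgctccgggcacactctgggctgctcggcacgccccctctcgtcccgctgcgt
The Cdk4 window held 4 such matches and the Cdk6 window 1. Of all 32851 RefSeq windows of 300 bases (250 before and 50 after a start), 7.15% held at least 1. The windows covered 8 of the 10 genes, some with a second start, and 1 of the 2 Cdkn2c windows held the only other match. E2F sequences (TTTCCCGC, TTTCGCGC, TTTGCCGC or TTTGGCGC, either strand) were in 2.26% of all windows, GATA sequences (AGATAA or TGATAA, either strand) in 18.6%, and neither was in a window of these genes. Myc itself, named after its values were seen, averaged 381 ± 53.7 CPM in Lepr+ HSC, while Lepr- HSC had 446 ± 79.9 CPM. Its MPP means were 476 ± 96.4 CPM in Lepr+ and 547 ± 80.4 CPM in Lepr- libraries.

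The first comparison asked what differs between stem cells with and without surface leptin receptor. Cdk6, a catalytic partner of the D-type cyclins whose level in human blood stem cells sets how readily they leave dormancy, had the most negative fold change of the 10 genes. It had 173, 329.8, 256, 324 and 127 CPM in Lepr+ HSC replicates 1 to 5, against 352, 765, 715, 567 and 417 CPM in Lepr- HSC replicates 1 to 5. Every Lepr+ HSC library lay below every Lepr- HSC library, as was the case in either direction for 1.62% of the genes tested, and Lepr+ HSC was lower in 5 of 5 pairs of the same replicate number. The log2 fold change was -1.22 ± 0.27 (SE), which missed the threshold of 0.05 in the edgeR quasi-likelihood test (Benjamini-Hochberg adjusted p = 0.0885). With the replicate number as a block the change was -1.22 ± 0.17 and passed it (edgeR adjusted p = 0.00314), as it did in DESeq2 without the block (adjusted p = 0.00249). In limma voom without the block it missed the threshold (adjusted p = 0.0851). Leaving out 1 library at a time without the block gave -1.36 to -1.06, with edgeR adjusted p from 0.0545 to 0.281. Lepr+ HSC replicate 5 was the lowest library, and without it the block, in a fit not planned beforehand, gave -1.07 (edgeR adjusted p = 0.00371). With the June libraries only (replicates 1, 3 and 5) the block gave -1.38 (edgeR adjusted p = 0.117), and the 2 July pairs without the block gave -0.99 (edgeR adjusted p = 1.00).

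In MPP, Cdk6 had 161, 297.8, 255, 246 and 285 CPM in Lepr+ replicates 1 to 5, against 282, 448, 439, 413 and 347 CPM in Lepr- replicates 1 to 5. Lepr+ MPP was again lower in 5 of 5 pairs, but the groups overlapped between 282 and 298 CPM. The log2 fold change of -0.63 ± 0.27 did not pass the test (edgeR adjusted p = 0.861, and 0.174 with the block). The Lepr difference in HSC minus that in MPP was -0.59 ± 0.38, which did not pass either (edgeR adjusted p = 1.00, and 0.857 with the block). Ordered by mean, Cdk6 stood at 563 ± 179.8 CPM in Lepr- HSC, 386 ± 70.4 in Lepr- MPP, 249 ± 53.5 in Lepr+ MPP and 242 ± 90.5 in Lepr+ HSC, and each neighbour in this order overlapped the next.

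**Figure D1:**
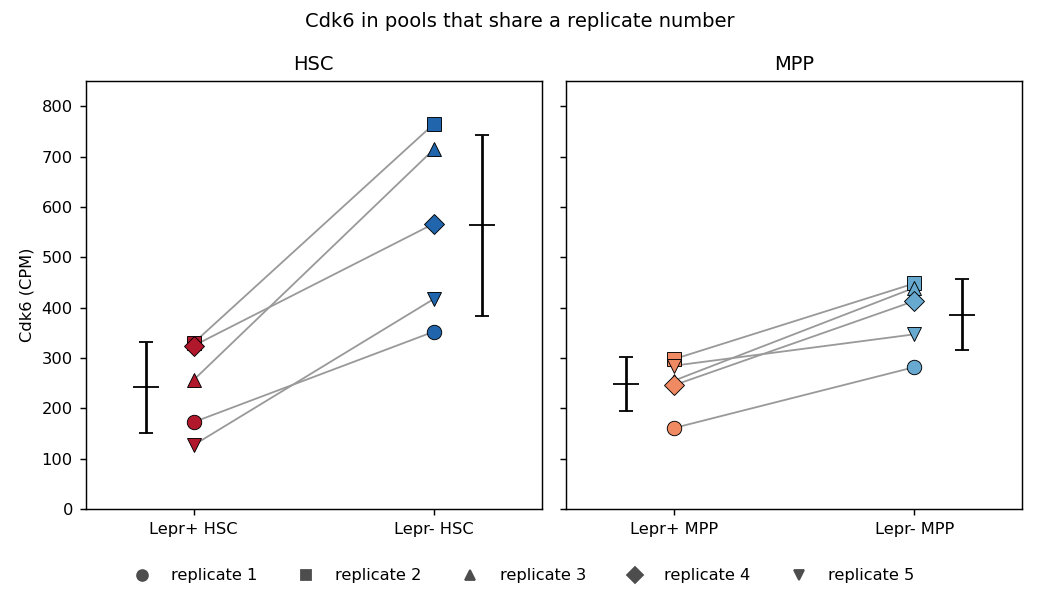
Cdk6 in CPM (linear axis from 0), with lines joining the Lepr+ and Lepr- libraries of the same replicate number; the bars beside the points are group means ± SD. All 10 lines run upward from Lepr+ to Lepr-, and the means are 242 and 563 CPM in HSC and 249 and 386 CPM in MPP.

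Gene lists of other cell types and of the later cell cycle moved with Cdk6 between the HSC groups. The summed CPM of 10 erythroid genes ran from 76.7 to 263 in Lepr+ HSC against 301 to 1306 in Lepr- HSC, with 9 of 10 genes lower by sign in Lepr+ HSC and 0 past the threshold in edgeR or DESeq2 (3 at an unadjusted p under 0.05 in each). Gata1, the erythroid and megakaryocyte transcription factor, averaged 64.9 ± 40.4 CPM in Lepr+ HSC, while Lepr- HSC had 184 ± 67.2 CPM. Klf1, a red cell transcription factor, averaged 20.8 ± 18.2 CPM in Lepr+ HSC, while Lepr- HSC had 52.3 ± 35.6 CPM. The late erythroid marker Alas2 stood near 0, averaging 0.563 CPM in Lepr+ HSC, while Lepr- HSC had 0.863 CPM. In MPP the erythroid sum ran from 34.4 to 252 CPM in Lepr+ and from 194 to 1070 CPM in Lepr- libraries. All 23 of 23 S phase genes and 20 of 20 G2/M genes had a log2 fold change below 0 in Lepr+ HSC, with medians of -0.46 and -0.65 and 0 genes past the threshold in edgeR or DESeq2. At an unadjusted p under 0.05 in edgeR there were 6 of 23 and 8 of 20, against 6.96% of all genes tested. The median over all genes tested was -0.00. Stromal genes, where Lepr+ and Lepr- HSC overlapped, were higher by sign in 15 of 18 tested (0 past the threshold in edgeR and 2 in DESeq2, 6 at an unadjusted p under 0.05 in edgeR), and endothelial genes in 11 of 12, with summed CPM of 143 to 256 in Lepr+ HSC and 101 to 129 in Lepr- HSC. Of 7 megakaryocyte genes tested 5 were lower by sign in Lepr+ HSC, with 0 past the threshold in edgeR, 2 in DESeq2 and 3 at an unadjusted p under 0.05 in edgeR. The summed CPM of that list was 1441 to 2888 in Lepr+ HSC, and in Lepr- HSC it was 2667 to 5602. Pf4, a platelet chemokine gene named after its values were seen, averaged 467 ± 214 CPM in Lepr+ HSC, while Lepr- HSC had 1857 ± 970.1 CPM, without overlap. The part of these cells and of cycling cells in the Cdk6 level was not tested.

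**Figure D2:**
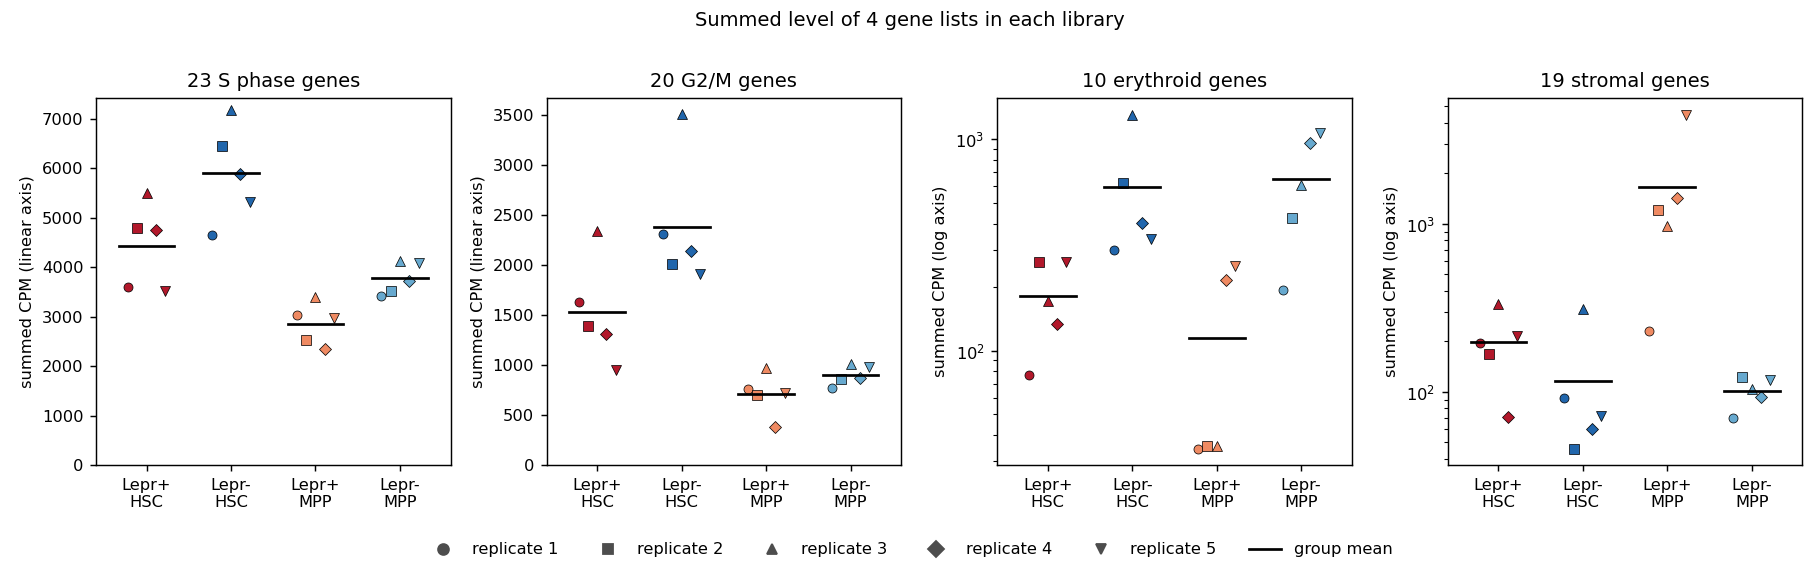
Summed CPM of 23 S phase and 20 G2/M genes (linear axes from 0) and of 10 erythroid and 19 stromal genes (log axes) in each library; bars are group means. The erythroid sums of Lepr+ HSC (at most 263) lie below those of Lepr- HSC (at least 301), and the stromal sums of Lepr+ MPP reach 4450.

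Cdk4, which binds the same cyclins as Cdk6, had a smaller fold change between the HSC groups. It had 553, 1002, 559, 965 and 1097 CPM in Lepr+ HSC replicates 1 to 5, against 648, 920.4, 727, 1455 and 1125 CPM in Lepr- HSC. Lepr+ HSC was lower in 4 of 5 pairs, with ranges that overlapped widely, and the log2 fold change was -0.22 ± 0.28 (edgeR adjusted p = 1.00). In MPP it was -0.14 ± 0.28 (edgeR adjusted p = 1.00). On the TPM scale the log2 ratio of Cdk6 to Cdk4 averaged -3.92 ± 0.75 in Lepr+ HSC and -2.90 ± 0.63 in Lepr- HSC. Its MPP means were -3.55 ± 0.53 in Lepr+ and -3.08 ± 0.43 in Lepr- libraries. Cdk6 was thus below Cdk4 in every library, at a share of 0.0269 to 0.228 of it, and the ranges of Lepr+ and Lepr- HSC overlapped between -3.54 and -3.23 on the log2 scale. Of Cdk4's exon bases 19.7% are also exon bases of Tspan31 on the opposite strand. The files keep a line of ambiguous reads, given to no gene, that held 5.58% to 6.73% of each library. Reads of such shared stretches may lie there, as the counting settings are not given. How many were Cdk4 reads cannot be told, and its TPM, which divides by all exon bases, may be too low.

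Among the D-type cyclins none passed the test between Lepr+ and Lepr- cells. Ccnd2, the D-type cyclin with the highest TPM, averaged 620.3 ± 114 CPM in Lepr+ HSC, while Lepr- HSC had 549.9 ± 101 CPM (log2 fold change 0.17 ± 0.21, edgeR adjusted p = 1.00). In MPP it averaged 476 ± 159 CPM in Lepr+ and 367 ± 61.7 CPM in Lepr- libraries, higher in 5 of 5 pairs (0.37 ± 0.21, edgeR adjusted p = 1.00). Ccnd3 averaged 369.9 ± 37.9 CPM in Lepr+ HSC, while Lepr- HSC had 442 ± 79.6 CPM, and Lepr+ HSC was lower in 5 of 5 pairs, with overlapping ranges (-0.26 ± 0.15, edgeR adjusted p = 0.893). In MPP it averaged 271 ± 50.0 and 245 ± 14.4 CPM in Lepr+ and Lepr- libraries (0.15 ± 0.15, edgeR adjusted p = 1.00). Ccnd1 averaged 40.1 ± 21.4 CPM in Lepr+ HSC, while Lepr- HSC had 25.1 ± 8.37 CPM, and Lepr+ HSC was higher in 4 of 5 pairs (0.68 ± 0.45, edgeR adjusted p = 0.949). In MPP the means were 17.1 ± 8.08 CPM in Lepr+ and 12.9 ± 6.67 CPM in Lepr- libraries. Of Ccnd1's exon bases 23.4% are shared with LTO1 on the opposite strand, with the same limit on its TPM as for Cdk4.

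As shares of their summed TPM, Ccnd2 made up 56.3% ± 2.26 of the D-type cyclin transcripts in Lepr+ HSC and 51.1% ± 3.13 in Lepr- HSC (SD, n = 5 each). Ccnd3 made up 36.6% ± 4.53 in Lepr+ HSC and 44.2% ± 3.35 in Lepr- HSC, and Ccnd1 7.16% ± 3.15 and 4.63% ± 1.13. In MPP the shares of Ccnd2 were 58.7% ± 4.85 in Lepr+ and 55.8% ± 2.89 in Lepr- libraries, those of Ccnd3 37.2% ± 5.39 and 40.3% ± 3.16, and those of Ccnd1 4.07% ± 0.904 and 3.91% ± 1.85. Ccnd2 was the largest of the 3 in all 20 libraries, and Ccnd1 the smallest. The Ccnd3 shares of Lepr+ HSC, 30.8% to 40.3%, overlapped those of Lepr- HSC, 39.03% to 47.4%, and no test was made of these shares.

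**Figure D3:**
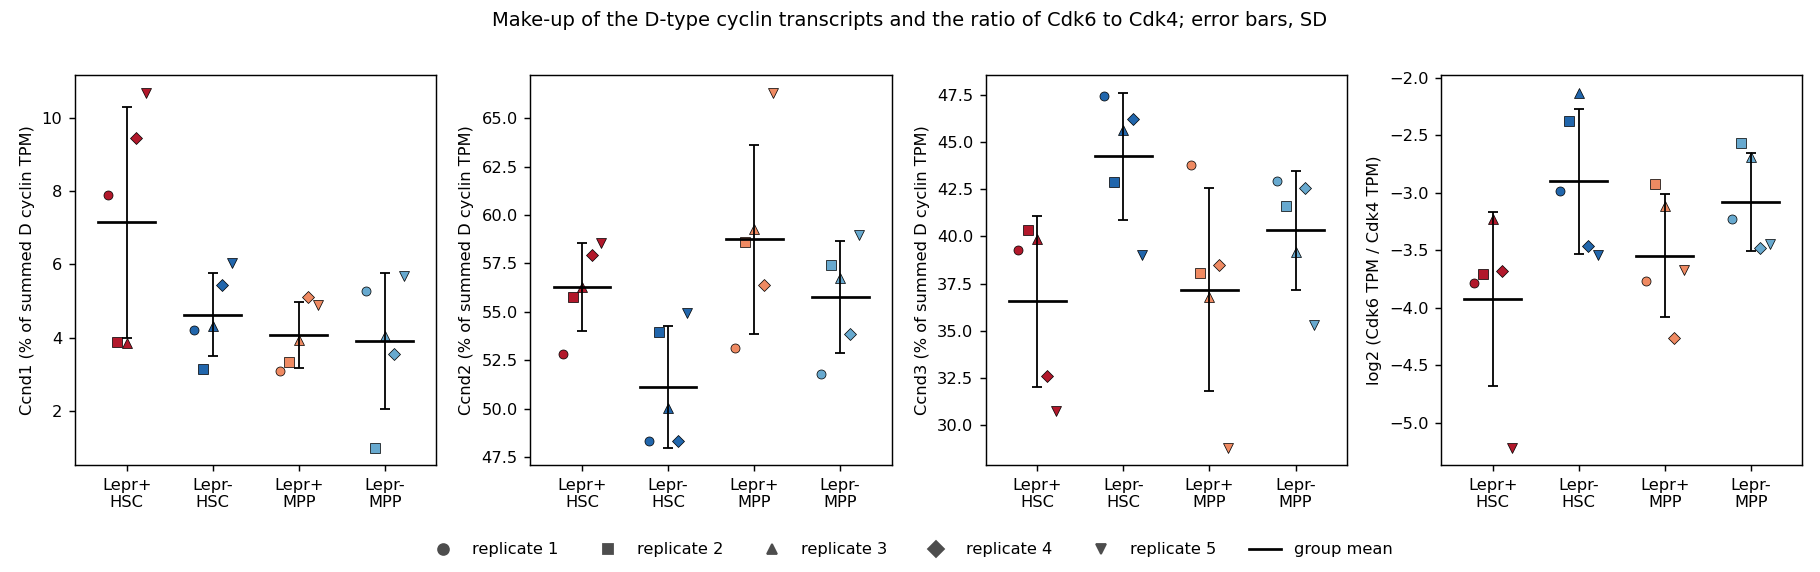
Share of Ccnd1, Ccnd2 and Ccnd3 in the summed TPM of the 3 (percent) and the log2 ratio of Cdk6 to Cdk4 TPM in each library, by group; bars are means ± SD, and the axes do not start at 0. The Ccnd3 share averages 36.6% in Lepr+ HSC and 44.2% in Lepr- HSC, and the lowest Cdk6 to Cdk4 ratio is -5.22, in Lepr+ HSC replicate 5.

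Ccne1, the cyclin that activates CDK2 at the end of G1, had the highest biological coefficient of variation of the 10 genes, 0.807, against 0.197 for Ccnd3 at the low end. In MPP it had 9.17, 0, 4.35, 12.7 and 4.05 CPM in Lepr+ replicates 1 to 5, against 10.7, 9.33, 29.4, 54.5 and 50.9 CPM in Lepr- replicates 1 to 5. Lepr+ MPP was lower in 5 of 5 pairs, though its highest library lay above the lowest 2 of Lepr- MPP. The library at 0 had 25148987 reads in genes, so that 3 reads, the limit a count of 0 allows, would be 0.112 CPM. The log2 fold change of -2.36 ± 0.81 did not pass (edgeR adjusted p = 0.487, DESeq2 adjusted p = 0.103). It was -2.03 without the library at 0 (edgeR adjusted p = 0.266), and leaving out each library in turn gave adjusted p from 0.266 to 0.860. In HSC Ccne1 averaged 15.2 ± 4.12 CPM in Lepr+ and 32.1 ± 14.3 CPM in Lepr- libraries (-1.08 ± 0.77, edgeR adjusted p = 0.971). The erythroid list moved with it, with 9 of 10 genes lower by sign in Lepr+ MPP, 1 past the threshold in edgeR and the overlapping sums given above. S phase genes were lower by sign in 23 of 23, with summed CPM of 2346 to 3409 in Lepr+ MPP against 3418 to 4135 in Lepr- MPP, which did not overlap. G2/M genes were lower by sign in 16 of 20, with sums of 387 to 979 CPM in Lepr+ MPP, overlapping those of Lepr- MPP at 774 to 1010. In both lists 0 genes passed in edgeR or DESeq2. At an unadjusted p under 0.05 in edgeR there were 4 of 23 and 3 of 20, against 4.41% of all genes tested. The part of these lists in the Ccne1 and Cdk6 levels of MPP was not tested.

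None of the 4 inhibitors passed the test between Lepr+ and Lepr- cells. Cdkn1b, which gives p27, had 10.01, 9.40, 7.95, 13.0 and 45.7 CPM in Lepr+ HSC replicates 1 to 5, against 11.99, 10.6, 4.13, 8.74 and 7.09 CPM in Lepr- HSC. The value of 45.7 CPM stood apart, while the other 4 Lepr+ HSC libraries, at 7.95 to 13.0 CPM, overlapped the Lepr- HSC range of 4.13 to 11.99 CPM. The log2 fold change was 1.01 ± 0.47 with it (edgeR adjusted p = 0.695) and 0.25 without it (edgeR adjusted p = 1.00). That same library, Lepr+ HSC replicate 5, had the lowest Cdkn2c of all 20 libraries at 3.26 CPM, where the other Lepr+ HSC libraries had 20.9 to 31.9 CPM and Lepr- HSC 27.7 to 42.4 CPM. Cdkn2c, which gives p18, had a log2 fold change of -0.53 ± 0.45 between the HSC groups (edgeR adjusted p = 1.00) and of -0.25 without that library (edgeR adjusted p = 1.00). Cdkn2d, which gives p19, averaged 98.5 ± 35.1 CPM in Lepr+ HSC, while Lepr- HSC had 110.1 ± 28.2 CPM. The MPP means of Cdkn2d were 70.8 ± 23.2 CPM in Lepr+ and 63.1 ± 14.2 CPM in Lepr- libraries. Cdkn1a, the p21 gene and a target of p53, averaged 6.32 ± 3.59 CPM in Lepr+ HSC, on 15 to 211 reads a library, while Lepr- HSC had 4.67 ± 2.01 CPM on 35 to 142 reads. In MPP it averaged 6.94 ± 8.27 CPM in Lepr+ and 7.86 ± 4.42 CPM in Lepr- libraries, and the Lepr+ mean rested on 1 library at 21.7 CPM, with the other 4 at 2.71 to 3.63 CPM.

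By count, 0 of the 10 genes passed in either Lepr comparison, where 0.103% of all genes tested passed in HSC and 0.2% in MPP (edgeR, adjusted p under 0.05). At an unadjusted p under 0.05 the count was 2 of 10 in each, where 6.96% of all genes were past it in HSC and 4.41% in MPP. In HSC these were Cdkn1b and Cdk6, and in MPP Cdk6 and Ccne1. With the block 1 of 10 passed in HSC, Cdk6, where 1.02% of all genes did, and DESeq2 also called 1, where 1.09% of all genes passed. In MPP the block called 0 of 10, where 0.103% of all genes passed, and DESeq2 0 of 10, where 1.29% passed. In CPM the groups did not overlap for 1 of 10 genes in HSC, against 1.62% of all genes, and for 0 of 10 in MPP, against 1.64%. By sign, 4 of the 10 stood higher and 6 lower in Lepr+ HSC, with a median log2 fold change of -0.19. In Lepr+ MPP 5 stood higher and 5 lower, with a median of -0.00. For the difference between the 2 Lepr effects 0 of 10 passed in edgeR with or without the block, where 0% of all genes passed, and 0 of 10 in DESeq2, where 0.115% did. At an unadjusted p under 0.05 it was 0 of 10 in edgeR, where 3.2% of all genes were past it.

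**Figure D4:**
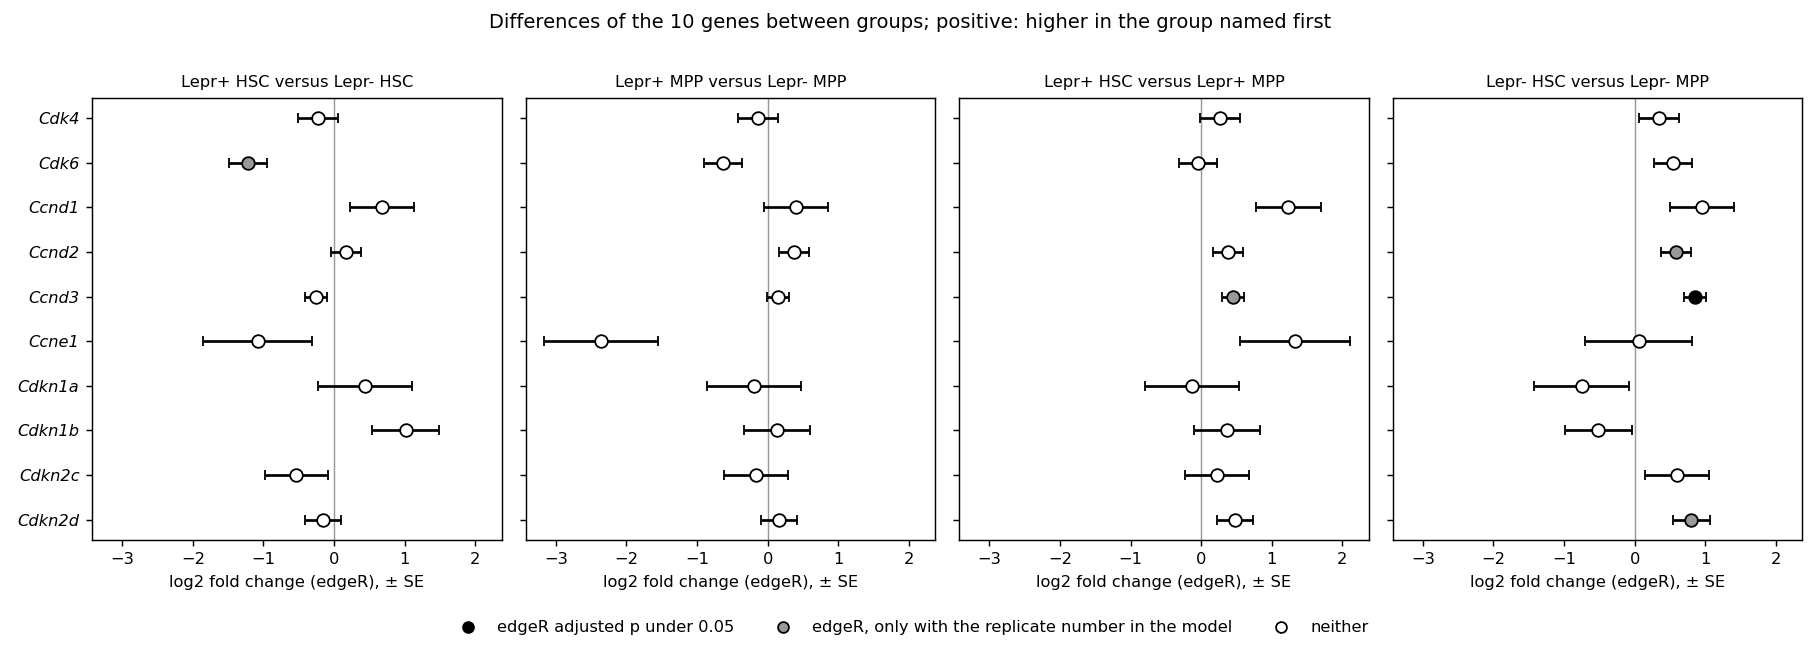
Log2 fold change ± SE of each gene in the 4 comparisons (edgeR fit of all 20 libraries; positive values are higher in the group named first). Ccnd3 in Lepr- HSC against Lepr- MPP (0.85) is the only black point. Grey points, such as Cdk6 in Lepr+ against Lepr- HSC (-1.22), passed 0.05 in edgeR only with the replicate number in the model. Without it Cdk6 also passed in DESeq2 but not in limma voom.

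The second kind of comparison set stem cells against multipotent progenitors of the same Lepr status. Ccnd3, the D-type cyclin that mouse lymphocyte precursors and red cell precursors depend on, was higher in HSC. It had 347, 458, 458, 557 and 390.3 CPM in Lepr- HSC replicates 1 to 5, against 219, 252, 251, 251 and 252 CPM in Lepr- MPP. In CPM no Lepr- HSC library overlapped a Lepr- MPP library, as for 6.23% of all genes tested. In TPM the groups overlapped, at 75.5 to 155 in Lepr- HSC and 57.5 to 87.0 in Lepr- MPP. The log2 fold change was 0.85 ± 0.15 and passed the test (edgeR adjusted p = 0.00275), as it did in DESeq2, limma voom and the fit with the block. It passed without each library in turn, at 0.75 to 0.92 (edgeR adjusted p from 0.00178 to 0.0129). Within the June libraries it was 0.72 (edgeR adjusted p = 0.235, and 0.0164 with the block) and within the July libraries 0.97 (edgeR adjusted p = 0.732).

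In Lepr+ cells Ccnd3 had 312, 412, 393, 372 and 362 CPM in HSC replicates 1 to 5, against 241, 232, 242, 351 and 290.2 CPM in MPP. HSC was higher in 5 of 5 pairs with overlap at replicate 4 of MPP, and the log2 fold change was 0.45 ± 0.15 (edgeR adjusted p = 0.290, and 0.0368 with the block). Ordered by mean, Ccnd3 stood at 442 CPM in Lepr- HSC, then 369.9 CPM in Lepr+ HSC, 271 CPM in Lepr+ MPP, and last 245 CPM in Lepr- MPP, and each neighbour in this order overlapped the next. The difference of its Lepr effect between HSC and MPP, -0.40 ± 0.22, did not pass (edgeR adjusted p = 1.00).

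The other D-type cyclins were also higher in HSC by sign. Ccnd2 was higher in 5 of 5 pairs of Lepr- cells (0.58 ± 0.21, edgeR adjusted p = 0.214), and passed with the block (edgeR adjusted p = 0.00520). In Lepr+ cells it was likewise higher in 5 of 5 pairs (0.38 ± 0.21, edgeR adjusted p = 0.763, and 0.0950 with the block). Ccnd1 had 33.6, 21.3, 20.4, 57.8 and 67.4 CPM in Lepr+ HSC replicates 1 to 5, against 9.10, 10.9, 13.9, 24.9 and 26.4 CPM in Lepr+ MPP. It was higher in HSC in 5 of 5 pairs, though the lowest HSC libraries overlapped the highest of MPP (1.24 ± 0.46, edgeR adjusted p = 0.378, and 0.0714 with the block). In Lepr- cells it averaged 25.1 ± 8.37 CPM in HSC and 12.9 ± 6.67 CPM in MPP, again higher in 5 of 5 pairs (0.96 ± 0.46, edgeR adjusted p = 0.403). In Lepr+ cells all 18 tested stromal genes were lower in HSC than in MPP by sign. The part of stromal cells in the D-type cyclin levels was not tested.

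Of the inhibitors, Cdkn2d had 87.2, 108, 87.2, 112 and 156 CPM in Lepr- HSC replicates 1 to 5, against 56.5, 66.5, 45.1, 83.8 and 63.6 CPM in Lepr- MPP. The groups did not overlap in CPM, and HSC was higher in 5 of 5 pairs. In TPM the groups overlapped, at 86.2 to 169 in Lepr- HSC and 87.1 to 127 in Lepr- MPP. The log2 fold change was 0.80 ± 0.26 (edgeR adjusted p = 0.126), and it passed with the block (edgeR adjusted p = 0.00481). It also passed when the 3 libraries that stood apart were left out (edgeR adjusted p = 0.0213). Those 3 are all Lepr+, so the Lepr- libraries compared stayed the same and only the shared fit and scaling changed. In Lepr+ cells it was 0.48 ± 0.26 (edgeR adjusted p = 0.742). Cdkn2c stood higher in Lepr- HSC in 5 of 5 pairs (33.3 ± 5.93 CPM, against 22.0 ± 11.2 CPM in Lepr- MPP), short of the threshold (0.60 ± 0.45, edgeR adjusted p = 0.710). Cdkn1a and Cdkn1b were the 2 genes below 0 in Lepr- HSC relative to Lepr- MPP, at -0.75 ± 0.67 and -0.52 ± 0.47 (edgeR adjusted p = 0.785 and 0.790). The kinases were higher by sign in Lepr- HSC in 5 of 5 pairs each, by 0.55 ± 0.27 for Cdk6 and 0.35 ± 0.28 for Cdk4 (edgeR adjusted p = 0.420 and 0.749). In TPM the Cdk4 means had the other order, 585 ± 56.7 in Lepr- HSC and 607 ± 36.8 in Lepr- MPP. In Lepr+ cells the kinases showed 0.26 ± 0.28 for Cdk4 and -0.04 ± 0.27 for Cdk6 (edgeR adjusted p = 0.986 and 0.997). The Cdk6 value was 0.12 without Lepr+ HSC replicate 5, so its sign rested on that library.

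By count, 1 of 10 genes passed between Lepr- HSC and Lepr- MPP, where 2.73% of all genes did, and 4 of 10 were past an unadjusted p of 0.05, where 12.3% of all genes were. With the block it was 3 of 10, against 7.5% of all genes, and in DESeq2 1 of 10, against 5.08%. In Lepr+ cells 0 of 10 passed, against 0.466% of all genes, with 2 of 10 past an unadjusted p of 0.05, against 7.89%. With the block it was 1 of 10, against 1.77%, and in DESeq2 0 of 10, against 2.05%. In CPM the groups did not overlap for 2 of 10 genes in Lepr- cells, against 6.23% of all genes, and for 0 of 10 in Lepr+ cells, against 2.13%. By sign, 8 of the 10 stood higher in HSC in each of the comparisons, with a median log2 fold change of 0.56 in Lepr- cells and 0.37 in Lepr+ cells, against medians over all genes tested of 0.01 and -0.02. Scaling by library size alone moved the median of all genes between Lepr- HSC and Lepr- MPP to -0.10.

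Other lists moved with these genes between HSC and MPP. All 23 S phase genes and all 20 G2/M genes were above 0 in Lepr- HSC relative to Lepr- MPP. Of them 7 and 10 passed the test, against 2.73% of all genes. The summed CPM of these lists ran from 4661 to 7174 and from 1917 to 3515 in Lepr- HSC, against 3418 to 4135 and 774 to 1010 in Lepr- MPP. In Lepr+ cells 4 of 23 and 5 of 20 passed, all higher in HSC, against 0.466% of all genes. Megakaryocyte genes, a lineage that CD150+ stem cells share many transcripts with, had summed CPM of 2667 to 5602 in Lepr- HSC and 552 to 967 in Lepr- MPP, with 5 of 7 tested genes higher and past the threshold. In Lepr+ HSC the sum was 1441 to 2888 CPM, against 588 to 1173 CPM in Lepr+ MPP, with 2 of 7 past the threshold. The part of these genes' cells in the Ccnd3 and Cdkn2d levels was not tested.

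Of 40 further genes of the G1 to S step, 38 were tested. Between Lepr- HSC and Lepr- MPP 5 rose and 0 fell, where 2.73% of all genes passed in either direction. In this list 24 genes were above 0 and 14 below. Cks1b, the small subunit that helps the Skp2 ubiquitin ligase recognise p27, averaged 279 ± 47.4 CPM in Lepr- HSC, while Lepr- MPP had 134 ± 25.7 CPM (1.06 ± 0.21, edgeR adjusted p = 0.00632). Skp2 itself averaged 46.0 ± 5.30 CPM in Lepr- HSC, while Lepr- MPP had 16.0 ± 3.75 CPM (1.52 ± 0.37, edgeR adjusted p = 0.0286). E2f1, an activating E2F, averaged 103.6 ± 23.9 CPM in Lepr- HSC, while Lepr- MPP had 49.4 ± 14.1 CPM (1.07 ± 0.27, edgeR adjusted p = 0.0332). Ccne2, the second E-type cyclin, averaged 41.8 ± 12.8 CPM in Lepr- HSC, while Lepr- MPP had 12.4 ± 2.84 CPM (1.75 ± 0.45, edgeR adjusted p = 0.0372). Mycn, a Myc family factor, averaged 299 ± 27.8 CPM in Lepr- HSC, while Lepr- MPP had 190.3 ± 37.98 CPM (0.65 ± 0.17, edgeR adjusted p = 0.0400). Each of these 5 was higher in 5 of 5 pairs, with no overlap of the groups, as for 6.23% of all genes tested. The other E-type cyclin, Ccne1, averaged 32.1 ± 14.3 CPM in Lepr- HSC, while Lepr- MPP had 30.96 ± 21.4 CPM, with a log2 fold change of 0.05 ± 0.76 (edgeR adjusted p = 0.992). With the block 8 of the 38 rose and 1 fell, where 7.5% of all genes passed.

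In Lepr+ cells 1 of the 38 rose in HSC and 0 fell, where 0.466% of all genes passed, with 27 above 0 and 11 below. This was again Mycn, at 317, 418, 390.0, 546 and 377 CPM in Lepr+ HSC replicates 1 to 5, against 182, 167, 211, 245 and 176 CPM in Lepr+ MPP. The groups did not overlap, as for 2.13% of all genes tested, and the log2 fold change was 1.06 ± 0.17 (edgeR adjusted p = 0.00708). With the block 2 of the 38 rose, Cks1b being the other, where 1.77% of all genes passed.

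Between Lepr+ and Lepr- cells 0 of the 38 passed in HSC or in MPP, with 18 above 0 and 20 below in each. Of all genes 0.103% passed in HSC and 0.2% in MPP. At an unadjusted p under 0.05 it was 3 of 38 in each, against 6.96% of all genes in HSC and 4.41% in MPP. In DESeq2 1 of 38 passed in each, against 1.09% of all genes in HSC and 1.29% in MPP. Cdkn1c, named here after its values were seen, is the third Cip/Kip inhibitor and gives p57, which mouse stem cells need for quiescence. It had 18.3, 23.8, 17.6, 25.2 and 22.9 CPM in Lepr+ HSC replicates 1 to 5, against 8.10, 11.1, 7.11, 10.6 and 8.24 CPM in Lepr- HSC. The groups did not overlap, and the log2 fold change of 1.25 ± 0.32 missed the threshold (edgeR adjusted p = 0.144) but passed with the block (edgeR adjusted p = 0.0481) and in DESeq2 (adjusted p = 0.00127). In MPP it averaged 13.4 ± 5.75 CPM in Lepr+ and 5.06 ± 0.720 CPM in Lepr- libraries, again without overlap (1.40 ± 0.32, edgeR adjusted p = 0.0861, and 0.0802 with the block). Cdkn1c is also expressed in stromal and endothelial cells. The stromal sums and the endothelial sums of HSC are given above. In MPP the endothelial genes summed to 172 to 814 CPM in Lepr+ libraries against 120 to 140.2 CPM in Lepr- libraries, with 12 of 12 higher by sign and 5 past the threshold in edgeR. The part of these cells in the Cdkn1c level was not tested. The 2 remaining INK4 genes were too low to test: Cdkn2a had counts in 2 of the 20 libraries, 6 in a Lepr- HSC and 7 in a Lepr+ MPP library, and Cdkn2b in 1, with 26 in a Lepr+ MPP library.

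The CPM of several of the 10 genes followed the replicate number across the groups. Cdk4 and Cdkn2d stood below their group mean in all 4 groups in replicates 1 and 3, and above it in all 4 in replicates 4 and 5. Ccnd1 stood above its mean in all 4 groups in replicates 4 and 5, and Cdk6 in replicates 2, 3 and 4, while Ccnd2, Ccnd3 and Cdk6 stood below it in all 4 in replicate 1. Replicates 4 and 5 were also the shallowest, with 9532993 to 15052009 reads in genes, against 18174638 to 31589794 in the other replicates. The part of depth in these levels was not tested. In TPM the pattern did not hold for Cdk4 or Cdkn2d. In Lepr- HSC replicates 1 to 5 Cdk4 had 609, 522, 665, 541 and 588 TPM, and Cdkn2d was lowest in replicate 4, at 86.2 TPM.

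Across the 20 libraries the correlation of log2 CPM between Cdk4 and Cdkn2d was 0.765, and 0.797 for deviations from the group means. It was 0.747 between Ccnd2 and Ccnd3 and 0.646 between Cdk6 and Cdkn2c, and -0.562 between Cdk6 and Cdkn1b. Lepr+ HSC replicate 5 had the lowest Cdk6 and Cdkn2c of the 20 libraries, at 127 and 3.26 CPM, and the highest Cdkn1b, at 45.7 CPM. The correlations without that library, or in TPM, were not computed. Among 10299 other protein-coding genes with a mean of at least 5 CPM, the one most like Cdk4 was Srsf3, a splicing factor (r = 0.980), and the one most like Cdkn2d was Vamp5 (r = 0.955). Ccnd3 was most like P2ry1, an ADP receptor of platelets (r = 0.945), Cdkn2c most like Fkbp1b (r = 0.933) and Cdk6 most like Aqp1, a water channel of red cells (r = 0.861). Ccnd2 was most like Apoe (r = 0.855), Cdkn1b like Zfp560 (r = 0.842), Ccnd1 like Jam3 (r = 0.842), Ccne1 like Smim1 (r = 0.804) and Cdkn1a like Scarb2 (r = 0.765). These are descriptions over libraries that share pools of mice and depth within a replicate number, and carry no test.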

How the data were processed

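The authors deposited raw read counts per gene, 1 table per library, in which the values are whole numbers with no normalization, as the files themselves show. The submitters' processing notes list STAR 2.7.1a, HTSeq 0.11.2, cutadapt 2.1, FastQC 0.11.8, an unversioned DESeq2 and the build GRCm38, without their settings. Per the labels' protocols, cDNA came from a SMART-Seq v4 kit and unstranded Nextera XT libraries were read as pairs. The closing lines for reads given to no gene held 21.4% to 38.7% of each library and were left out.

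Symbols came from GENCODE M21, which matched 55480 of 55573 identifiers. Counts were tested with edgeR 4.0.16 in R 4.3.3 (quasi-likelihood, robust, TMM, filterByExpr at min.count 10 and min.total.count 15, group as the only term, two-sided, Benjamini-Hochberg over 16509 genes, threshold 0.05), and the script was tested on simulated counts. CPM used TMM library sizes, and TPM merged exon lengths. Alternatives were DESeq2 1.42.0, limma voom (limma 3.58.1), DESeq2-type size factors, library size alone, no filter, the replicate number as a block, fewer libraries and each month alone. The fits that joined the block with fewer libraries or with June alone were not among the planned settings and were added to them. Floors cover counting error only, as PCR copies of a molecule could not be told from separate molecules.

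The design text gives 2 mice per replicate, and each replicate number carried 1 file date in all 4 groups, so the numbers were taken to pair the libraries. Deviations from the group means correlated at a median of 0.264 over 30 pairs of the same number (range -0.0647 to 0.562), and at -0.0857 over 120 pairs of different numbers. The genes and lists were chosen with earlier results of these data known. Named were the 10 genes, up to 4 pathway genes per comparison with the smallest p among those past the threshold, and for each of the 10 the gene most like it. Promoter sequences came from RefSeq tables of GRCm38.p6, which covered 8 of the 10 genes. Protein sequences were not used here.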

Additional observations from a re-analysis of the deposited data

Results flagged for a closer look

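Of 56 sets of 5 libraries checked for a library far from the others, 5 had one, by Dixon's criterion with a critical value of 0.710. Chance flags about 1 in 20 such sets. Cdkn1a stood at 21.7 CPM in Lepr+ MPP replicate 5, where the next highest Lepr+ MPP library had 3.63 CPM. Cdkn1b stood at 45.7 CPM in Lepr+ HSC replicate 5, next to 13.0 CPM. Cdkn2c stood at 35.9 CPM in Lepr+ MPP replicate 4, next to 17.4 CPM. Ccnd3 was lowest in Lepr- MPP replicate 1 at 219 CPM, where the other 4 lay between 251 and 252 CPM. The log2 ratio of Cdk6 to Cdk4 TPM was -5.22 in Lepr+ HSC replicate 5, where the next lowest was -3.79. Of these 5 values, 4 lay in the 3 libraries that stood apart from their groups over all genes.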

How the results depend on the processing

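The call of Ccnd3 between Lepr- HSC and Lepr- MPP held under every setting tried except June alone and July alone without the block, where it kept its direction. Cdk6 kept its direction between Lepr+ and Lepr- HSC under every setting. Other size factors and no filter changed no direction or call of the 10 genes, in 50 of 50 values each. The cause of the changes below was not tested. The limits are 5 pools a group, a wide spread between libraries and few reads for Cdkn1a. The common biological coefficient of variation over all genes tested was 0.747. Among the 10 genes it ran from 0.197 for Ccnd3 to 0.807 for Ccne1.

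Between Lepr+ and Lepr- HSC 17 genes passed. The count was 180 in DESeq2, 169 with the replicate block, 8 without the 3 libraries that stood apart, and 0 with June alone or July alone. With the block it was 143 without those 3 libraries, 95 without Lepr+ HSC replicate 5 and 0 with June alone. Of the 10 genes 0 passed, against 1 in DESeq2, 1 with the block and 1 with the block without the 3 libraries or without that replicate. Between Lepr+ and Lepr- MPP 33 genes passed, against 213 in DESeq2, 59 in limma voom, 17 with the block, 0 without the 3 libraries, 0 in June or July alone, 2 with the block without the 3 libraries and 0 with the block in June. Between Lepr- HSC and Lepr- MPP 451 passed, against 839 in DESeq2, 1238 with the block, 768 without the 3 libraries, 81 in June, 0 in July, 1977 with the block without the 3 libraries and 1464 with the block without Lepr+ HSC replicate 5. Of the 10 genes 1 passed, against 3 with the block, 2 without the 3 libraries, 0 in June or July, 5 with the block without the 3 libraries, 4 with the block without that replicate and 2 with the block in June. As the 3 libraries and that replicate are all Lepr+, leaving them out kept every Lepr- library in this comparison. Between Lepr+ HSC and Lepr+ MPP 77 passed, against 338 in DESeq2, 126 in limma voom, 293 with the block, 0 in June or July, 180 with the block without the 3 libraries, 241 with the block without that replicate and 20 with the block in June. Of the 10 genes 0 passed, against 1 with the block and 2 with the block without the 3 libraries. For the difference of the Lepr effects 0 genes passed, against 19 in DESeq2 and 1 with the block in June.

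Some log2 fold changes that passed no test changed sign. Between Lepr+ and Lepr- MPP, Cdkn1b was -0.11 in limma voom, -0.40 without the 3 libraries, -0.21 in June, -0.30 with the block without the 3 libraries and -0.28 with the block in June. Cdkn2d was -0.19 without the 3 libraries and -0.0056 with the block without the 3 libraries, and Ccnd3 -0.037 and -0.0064 in the same settings. Ccnd1 was -0.19 without the 3 libraries, -0.048 in June and -0.14 with the block in June, and Cdkn1a 0.84 in June and 0.56 with the block in June. Between Lepr- HSC and Lepr- MPP, Ccne1 was -0.042 with library size only and -0.11 in July. Between Lepr+ HSC and Lepr+ MPP, Cdkn1a was 0.41 in limma voom, 0.090 with the block, 0.90 without the 3 libraries, 0.72 in July, 0.85 with the block without the 3 libraries and 0.20 with the block without Lepr+ HSC replicate 5. Cdk6 was 0.18 without the 3 libraries, 0.26 in July, 0.15 with the block without the 3 libraries and 0.085 with the block without that replicate, and Cdkn1b -0.46 in July and -0.29 with the block without that replicate. For the difference of the Lepr effects, Cdk4 was 0.058 with library size only, 0.23 without the 3 libraries, 0.048 in June, 0.032 with the block without the 3 libraries and 0.046 with the block in June. Cdkn2c was 0.29 without the 3 libraries and 0.035 with the block without the 3 libraries, Ccnd2 0.087 and 0.029 in the same settings, Cdkn1a -0.033 in June, and Cdkn1b -0.36 and Ccnd1 -0.68 in July.

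With CPM in place of TPM, the log2 ratio of Cdk6 to Cdk4 was -1.82 in Lepr+ HSC, -0.79 in Lepr- HSC, -1.44 in Lepr+ MPP and -0.98 in Lepr- MPP. The Ccnd1 shares were 3.83%, 2.45%, 2.13% and 2.06% in the same order, and the Ccnd2 share was 59.9% in Lepr+ HSC. Leaving out 1 library at a time gave 0 to 24 genes between the HSC groups, 4 to 49 between the MPP groups, 301 to 462 between Lepr- HSC and MPP, 28 to 94 between Lepr+ HSC and MPP, and 0 for the difference. It changed the sign of 23 of 600 values. The ranges were -1.28 to 0.052 for Cdkn1a, -0.49 to 0.18 for Cdkn2c, -0.36 to 0.0082 for Cdk4, -0.11 to 0.25 for Cdkn1b and -0.019 to 0.29 for Cdkn2d between Lepr+ and Lepr- MPP. They were -0.18 to 0.36 for Ccne1 between Lepr- HSC and MPP, -0.18 to 0.12 for Cdk6, -0.41 to 0.96 for Cdkn1a and -0.40 to 0.61 for Cdkn1b between Lepr+ HSC and MPP, and -0.23 to 0.14 for Cdk4 in the difference. Beyond the calls named with the block in the report, the block changed no call of the 10 genes.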

Other observations

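The p53 targets other than Cdkn1a, 16 genes, were divided in sign between Lepr+ and Lepr- cells. In HSC 10 stood above 0 and 6 below, with a median log2 fold change of 0.14, and in MPP 6 stood above and 10 below, with a median of -0.09. In edgeR and in DESeq2 0 of 16 passed in either comparison, with 2 of 16 in HSC and 0 of 16 in MPP at an unadjusted p under 0.05. Between Lepr- HSC and Lepr- MPP 1 of 16 fell, Trp53inp1, which is named here after its values were seen, and between Lepr+ HSC and Lepr+ MPP 0 of 16 passed in edgeR (1 at an unadjusted p under 0.05).

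Markers of mature blood cells differed between libraries of 1 group. The summed CPM of 8 B and plasma cell genes ran from 51.0 to 641 in Lepr+ HSC and from 43.5 to 109.8 in Lepr- HSC, and from 83.1 to 4462 in Lepr+ MPP and from 112 to 279 in Lepr- MPP. T and NK cell genes, 7 in all, summed to 42.9 to 146 CPM in Lepr+ HSC and 94.7 to 224 CPM in Lepr- HSC. In MPP they summed to 66.0 to 139 CPM in Lepr+ and 106 to 199.7 CPM in Lepr- libraries. Nearly all of this sum was Nkg7, with a mean of 80.6 of 81.1 CPM in Lepr+ HSC and 173.2 of 173.5 CPM in Lepr- HSC. The T cell genes Cd3e, Cd3d and Cd3g stood at or near 0 in all groups, so the sum describes Nkg7 and not the whole list. Neutrophil and monocyte genes, 10 in all, summed to 493 to 1138 CPM in Lepr+ HSC and 438 to 719 CPM in Lepr- HSC, and to 527 to 775 and 428 to 1036 CPM in Lepr+ and Lepr- MPP. Most of that sum was Lyz2, with a mean of 568 of 794 CPM in Lepr+ HSC and 448 of 557 CPM in Lepr- HSC. The part of mature blood cells in the levels of the G1 genes was not tested.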
